A study of Mus musculus with 10 samples.

Results

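The clustered protocadherins are cell surface proteins of the cadherin superfamily, encoded side by side in an alpha, a beta and a gamma cluster. The members were the rows of the deposited gene tables whose symbol names an alpha, beta or gamma clustered protocadherin, and they came to 58 of 34745 rows. There were 14 alpha members, 22 beta members and 22 gamma members. The alpha members were 12 alternate genes with Pcdhac1 and Pcdhac2, and the gamma members were 12 gamma-A genes, 7 gamma-B genes and Pcdhgc3, Pcdhgc4 and Pcdhgc5. The 5 genes with a c in their symbol are called C-types.

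Male C57BL/6 mice gave auditory cortex, from which RNA was extracted with TRIzol and sequenced as stranded mRNA libraries. The genotypes were wild type (WT) and Ash1l heterozygote (het), and the WT mice were littermates of the het mice. Ash1l encodes a histone methyltransferase acting on lysine 36 of histone H3. At the age of 1 month each genotype had 3 libraries, and at 1 year each had 2. The labels describe neither the Ash1l allele nor the number of animals behind a library, so the p-values reflect the spread among libraries, which may be technical.

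In neurons, each alternate promoter of the clusters is chosen by chance in a single cell, under the control of the insulator protein CTCF and cohesin, whereas most C-types are transcribed more uniformly. The proteins bind their own kind on opposing membranes, and this recognition underlies the self-avoidance of dendrites and axons of one cell. An alpha or gamma messenger RNA joins a variable first exon, which encodes the extracellular part, to constant exons shared by the whole cluster, while a beta gene has its own coding exon and no constant part.

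On GRCm38 chromosome 18 the alpha members spanned bases 36930184 to 37187661, the beta members 37264938 to 37524479 and the gamma members 37661793 to 37841873, all on the plus strand. In the GENCODE M21 annotation, 38.0% to 54.9% of an alpha member's exon bases and 27.8% to 66.8% of a gamma member's were shared with another member. No beta member shared exon bases except Pcdhb21 and Pcdhb22, which overlap by 455 bases. Sequences of 100 bases that occur in another member made up 47.7% to 58.4% of alpha transcripts, 40.7% to 50.0% of gamma transcripts and 0% to 7.73% of beta transcripts. How reads of the shared exons were divided among members is not given in the sources used here. Values of single alpha and gamma members are therefore uncertain, and the part of that division in the results below was not tested.

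The files hold 2 rows named Pcdha11 and 2 named Pcdhga8. By Ensembl identifier and GENCODE M21, the Pcdhga8 row ENSMUSG00000023036 is Pcdhgc4 and is called that here. The second Pcdha11 row, ENSMUSG00000007440, carries the same symbol in that annotation and is kept as a row of its own. It starts at base 37005203, between the starts of Pcdha9 and the other Pcdha11 row. No member row is named Pcdha10, and whether this row is that gene was not settled.

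The libraries held 11959161 to 17252964 counts. Ash1l measured 192 to 225 CPM (counts scaled to the size of the library, with TMM normalization) in WT and 131 to 153 in het at 1 month. At 1 year it measured 165 to 183 in WT and 156 to 162 in het. Its log2 fold change of het over WT was -0.56 ± 0.098 (SE) at 1 month and -0.13 ± 0.12 at 1 year. Neither passed edgeR's quasi-likelihood test, with adjusted p of 0.279 and 0.908. The excitatory marker Slc17a7 (855 to 1511 CPM) and the inhibitory marker Gad1 (209 to 322 CPM) were present in every library. Correlation with the other libraries of the same group was lowest for het 1 month replicate 1, at 0.976. Of the 58 members, 57 passed the filter on low counts, and Pcdhb1, with 0 to 6 counts, did not.

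One gamma member took a large part of the gamma cluster's counts in each library, and it was a different member in most of them. The highest member held 25.8% to 37.5% of the gamma counts, and 7 different members filled that place over the 10 libraries. At 1 month no member was highest in more than 1 library. In WT replicate 1 it was Pcdhga7, a gamma-A member, with 3192 of 9976 counts. In WT replicate 2 it was Pcdhgb6, with 1677 of 6504, and in WT replicate 3 the C-type Pcdhgc4, with 4089 of 11299. Pcdhgc4 is the gamma isoform known to be needed for the survival of cortical interneurons.

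In het 1 month replicate 1 the highest member was Pcdhgb8, with 2724 of 7270 counts. It was Pcdhga1 in replicate 2, with 3651 of 10635, and Pcdhgb5 in replicate 3, with 3486 of 9842. At 1 year Pcdhgb8 led in WT replicate 1 with 2089 of 7716 counts, Pcdhga1 in WT replicate 2 with 1774 of 6566 and in het replicate 1 with 1267 of 4869, and Pcdhgb4 in het replicate 2 with 1614 of 5485. Pcdhga1 led in 1 WT and 2 het libraries and at both ages, and Pcdhgb8 in 1 het library at 1 month and 1 WT library at 1 year.

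**Figure D1:**
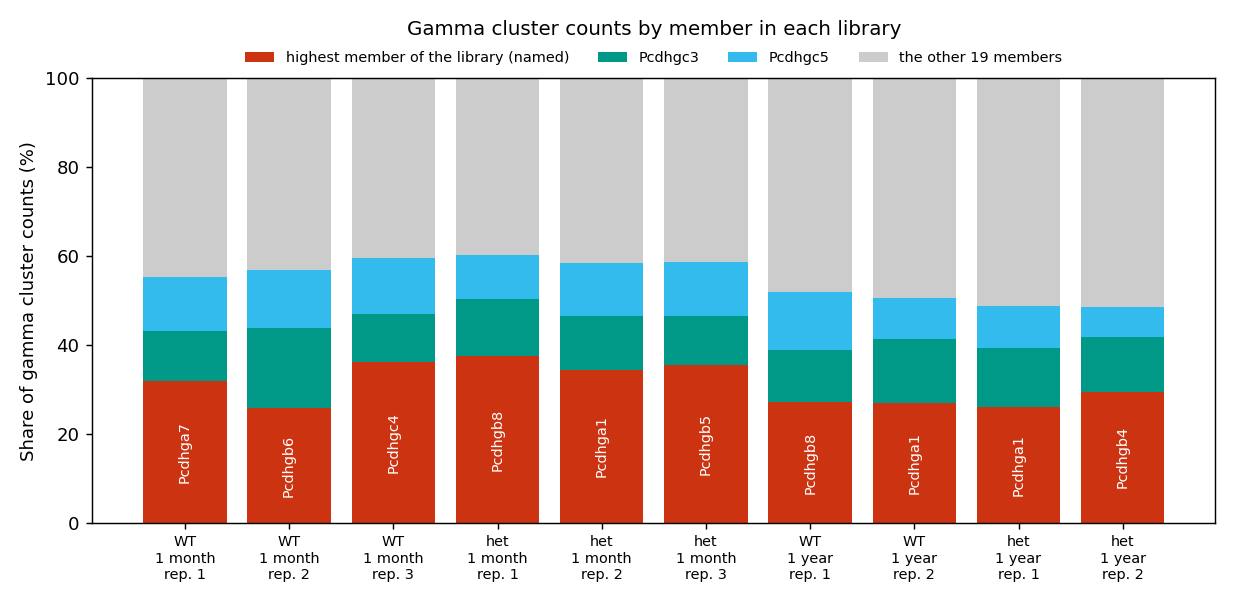
Share of all gamma cluster counts (%) in each of the 10 libraries, stacked by member: the highest member of that library (named in the bar), Pcdhgc3, Pcdhgc5 and the remaining members together. The highest member holds 25.8% to 37.5% of the counts and changes from library to library.

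The same members were low elsewhere. Pcdhgb8 (ENSMUSG00000103081, bases 37761801 to 37841870) had 2724, 2089, 1108 and 767 counts in het 1 month replicate 1, WT 1 year replicate 1, WT 1 month replicate 3 and WT 1 year replicate 2. In the other 6 libraries it had 8 to 29 counts. Its highest normalized level was 125 times its median over the 10 libraries. Pcdhgb5 had 3486 counts in het 1 month replicate 3 and 647 in het 1 year replicate 1, 226 and 210 in the WT 1 year libraries and 38 to 92 in the rest. Its highest level was 42.0 times its median. Each of these gamma-B members was thus low in some replicates and high in another replicate of the same group.

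Pcdhgc4 had 4089 counts in WT 1 month replicate 3 and 62 to 203 in the other 9 libraries, 26.3 times its median at the highest. Pcdhga1 had 3651, 1774, 1267 and 732 counts in het 1 month replicate 2, WT 1 year replicate 2 and both het 1 year libraries, and 46 to 221 elsewhere. Its highest level was 23.6 times its median. For Pcdhga7 that ratio was 19.3, for Pcdhga4 14.0, for Pcdhgb6 11.1, for Pcdhgb2 8.58, for Pcdhga2 7.57 and for Pcdhgb1 5.91. Pcdhga4 stayed low in absolute terms, with 107 and 108 counts in het 1 month replicate 1 and WT 1 year replicate 1 and 4 to 13 in the rest.

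In all, 10 of 22 gamma members were at 5 or more times their own median in at least 1 library, 4 of the gamma-A, 5 of the gamma-B and 1 of the C-types. None of the 14 alpha or 22 beta members was. Among the 16023 genes tested in the series 0.468% met that criterion. Every library had 1 to 3 such gamma members. The part of a library's gamma CPM that lay above the members' own medians was 38.7% to 54.0%, against 0.573% to 24.9% in the alpha cluster and 2.76% to 10.5% in the beta cluster. The 10 members summed to 137 to 388 CPM, and the other 12 gamma members, chosen after their values were seen, to 188 to 388 CPM.

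edgeR's biological coefficient of variation, the relative spread between libraries of one group beyond counting error, put a number on this. Its median was 0.478 over the 22 gamma members, 0.215 over the alpha and 0.173 over the 21 tested beta members, and 0.143 over all tested genes. The highest was 1.67 for Pcdhgb8. Pcdhgc3, a C-type known for promoting dendritic branching, had 0.130, and Pcdhgc5 had 0.204. The spread was therefore wide in some gamma members and near that of other genes in Pcdhgc3.

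**Figure D2:**
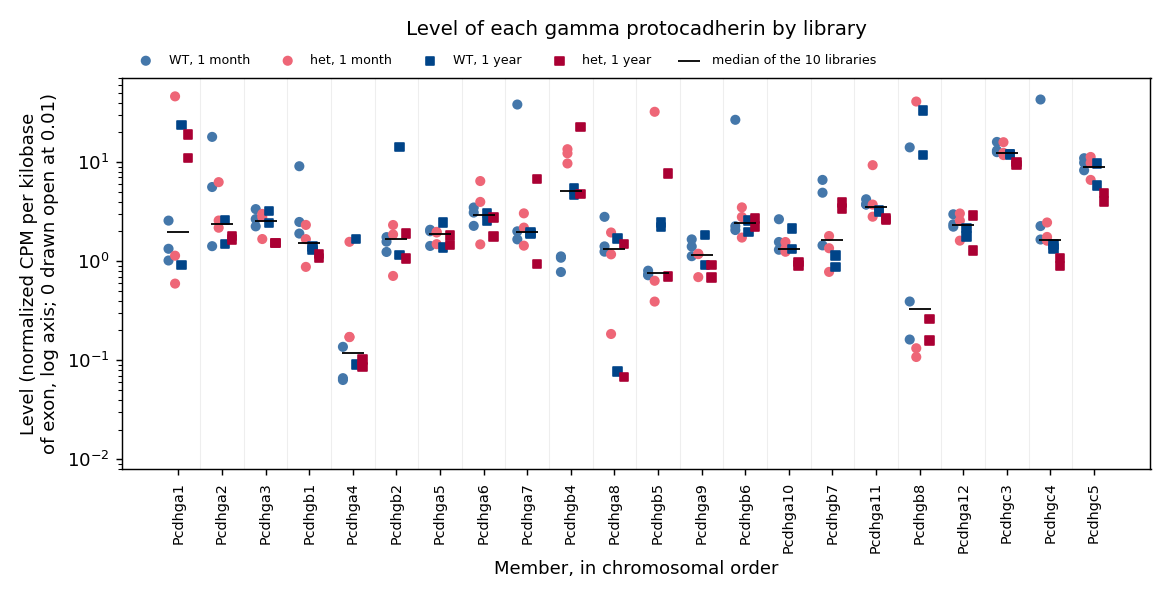
Level of each gamma member (normalized CPM per kilobase of exon, log axis) in the 10 libraries, coloured by group, with the median as a black line. Pcdhgb8 reaches 125 times its median, while the highest library of Pcdhgc3, Pcdhgc5, Pcdhga3, Pcdhga5 and Pcdhga12 stays within 1.26 to 1.32 times theirs.

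Levels were compared between genes as CPM per kilobase of annotated exon. Pcdhgc3 was the highest member, with a median of 12.3 and a lowest library of 9.38, and it measured 13.9 ± 1.83 in WT at 1 month (SD, n = 3). Pcdhgc5, a C-type found at synapses, had a median of 8.98 and a highest library of 11.3, and its range overlapped that of Pcdhgc3. Pcdhac2, which serotonergic axons need to spread evenly, had a median of 5.99 and a range of 3.79 to 8.52, overlapping Pcdhgc5. These 3 C-types held the first 3 places by median. Pcdhgc4 had a median of 1.63, the place of an ordinary gamma member, and Pcdhac1 0.832. C-types as a class were thus not uniformly high.

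The alternate alpha members were lower, with medians from 0.0771 for Pcdha8 to 1.58 for Pcdha2. Pcdhac2 alone held 31.4% to 39.6% of alpha counts and was the highest alpha member in all 10 libraries. Pcdha12 and Pcdha5, with Pcdha2 the highest alternates by deposited FPKM, had medians of 1.502 and 0.998, and Pcdha8 had 1 to 28 counts. Deposited FPKM divides by another length: in 17 of the 22 members with several transcripts, the length it implied was the sum of all transcript lengths.

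Beta members had medians from 0.0461 for Pcdhb1 to 3.86 for Pcdhb9, and no one of them held more than 12.4% of beta counts. Pcdhb9 (range 2.88 to 4.68), Pcdhb20 (median 3.58, range 2.61 to 3.99) and Pcdhb17 (median 3.28, range 2.79 to 4.07) overlapped one another in their ranges. The gamma-A members had a middle median of 1.96 and the gamma-B members of 1.62. By mean FPKM Pcdhga1, Pcdhga2 and Pcdhga7 led the gamma-A set and Pcdhga4 was lowest, while Pcdhgb8, Pcdhgb4 and Pcdhgb6 led the gamma-B set and Pcdhgb1 was lowest. By median, Pcdhgb8 stood at place 55 of the 58 members and by mean at place 3, and 4 libraries held nearly all of its counts.

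A few beta members were nearly absent from single libraries. Pcdhb19 had 0 counts in het 1 month replicate 2, where a floor of 3 counts is 0.198 CPM, and 175 to 234 in the other 9 libraries. Pcdhb22 had 13 counts in WT 1 month replicate 2 and 15 and 11 in the WT 1 year libraries, and 192 to 305 in the other 7. Pcdhb21, which overlaps Pcdhb22, had 10, 8 and 11 counts in het 1 month replicates 2 and 3 and WT 1 month replicate 1, and 64 to 113 elsewhere. In none of the 10 libraries were Pcdhb21 and Pcdhb22 low together.

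Pcdhga8 followed a similar course, with 14, 4 and 5 counts in het 1 month replicate 3, het 1 year replicate 1 and WT 1 year replicate 1 and 79 to 226 in the rest. Levels at or under 0.2 times the own median in some library were seen in 4 of 22 beta members (Pcdhb1 among them, at too few counts to read), 2 of 22 gamma and 1 of 14 alpha. The share of all tested genes was 3.13%. Floors and low counts cover counting error only.

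**Figure D3:**
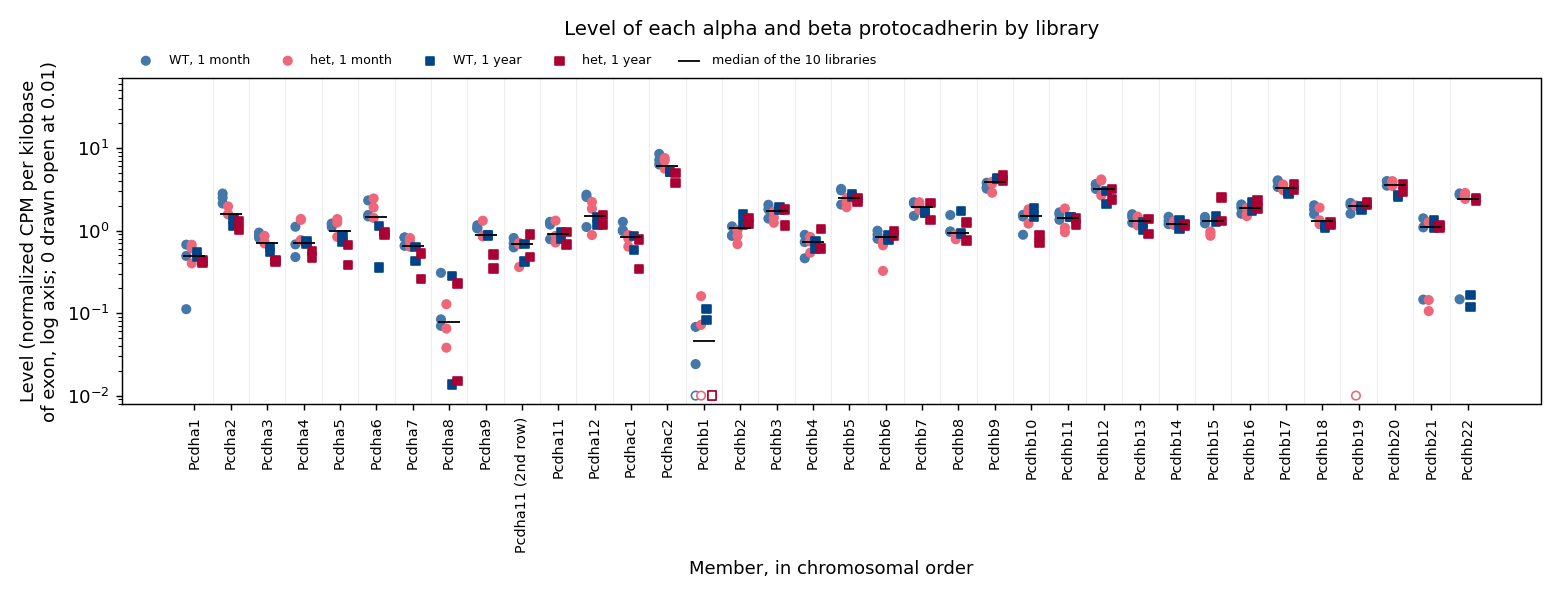
Level of each alpha and beta member (normalized CPM per kilobase of exon, log axis; values of 0 drawn open at 0.01) in the 10 libraries. Pcdhac2 is the highest alpha member, and Pcdhb19, Pcdhb21 and Pcdhb22 each lie far below their own median in 1 or 3 libraries.

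The first comparison asks whether Ash1l heterozygosity was accompanied by other protocadherin levels at 1 month. No member passed edgeR's quasi-likelihood test with Benjamini-Hochberg adjustment (0 of 57, and 0% of all genes tested). At an unadjusted p under 0.05, 1 member was higher and 4 were lower in het, where 1.5% of all genes were in each direction. DESeq2 called 1 member, Pcdhgb4, among 11 of all genes called, and limma on FPKM called 0 members. The median log2 fold change of the members was -0.15, against 0.0078 over all genes, and ran from -0.27 without het replicate 2 to -0.083 without het replicate 1. Kidney markers, foreign to cortex, separated the genotypes at this age, at 11.6 to 33.8 CPM in het and 6.69 to 9.34 in WT, and their part in the comparison was not tested.

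Pcdhgb4 (ENSMUSG00000103585) separated the groups at 1 month. Het libraries had 813, 1158 and 1146 counts and WT libraries 101, 87 and 77. The log2 fold change was 3.58 ± 0.58 (SE), with an edgeR quasi-likelihood adjusted p of 0.647. The test was sensitive to the tool: DESeq2 gave an adjusted p of 1.55e-07 and a fit of the 1 month libraries alone 6.75e-05, while the 15 alternatives ran from 1.55e-07 to 1.00, with 2 under 0.05. DESeq2 and the main edgeR fit both used all 10 libraries, and the source of the difference between them was not tested. At 1 year the genotypes overlapped, with 347 and 1614 counts in het and 433 and 378 in WT.

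Other members with small p at 1 month were Pcdhgb7 (log2 fold change -1.71 ± 0.54), with 53, 94 and 136 counts in het and 500, 310 and 116 in WT, and Pcdha2 (-0.54 ± 0.17), with 125 to 152 in het and 180 to 242 in WT. Both had an edgeR adjusted p of 1.00. Pcdha2 did not overlap between genotypes and Pcdhgb7 did. The members of smallest p besides these were Pcdhb6 (-0.64), and in the other direction Pcdhga4 (2.78) and Pcdha4 (0.64). Without het replicate 1, the library with 107 Pcdhga4 counts, Pcdhga4 was at 0.91, and Pcdha4 ran from 0.39 without WT replicate 3 to 1.01 without WT replicate 2. Over all members, 5 were lower and 2 higher in het without overlap between libraries, where 3.34% and 3.51% of all genes did so.

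At 1 year again 0 of 57 members passed (0.0125% of all genes), with 2 higher and 5 lower at an unadjusted p under 0.05, where 2.95% and 2.73% of all genes were, and DESeq2 and limma called 0. Pcdhb22 had 192 and 201 counts in het and 15 and 11 in WT, a log2 fold change of 4.06 ± 1.24 with an edgeR adjusted p of 0.820. It was also among the members with a library near 0 at 1 month. Pcdha9 was at -1.03 ± 0.30 (adjusted p 0.802 by edgeR), with 23 and 34 counts in het and 64 and 66 in WT. Pcdhb10 (-1.08) and Pcdhga3 (-0.88) had edgeR adjusted p of 0.802, and Pcdhgb7 (1.85) and Pcdhgb4 (1.44) went the other way. A fit of the 1 year libraries alone called 2 members, Pcdhb22 and Pcdhgb7, among 15 of all genes called. Without overlap between libraries, 18 members were lower and 6 higher in het, where 20.8% and 21.6% of all genes did so.

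Over both ages 0 of 57 members passed (0.00624% of all genes), with 2 higher and 6 lower at an unadjusted p under 0.05, where 2.6% and 2.38% of all genes were, and limma called 0. DESeq2 called Pcdhgb4, among 22 of all genes called. For Pcdhgb4 edgeR gave a log2 fold change of 2.51 ± 0.43, with an edgeR adjusted p of 0.479. The interaction of genotype and age called 0 of 57 (0.00624% of all genes), with 4 higher and 5 lower at an unadjusted p under 0.05, where 2.16% and 2.01% of all genes were, and DESeq2 and limma called 0. Its smallest p among members belonged to Pcdhgb7, at 3.57 ± 0.88 with an edgeR adjusted p of 1.00. No difference in the effect of genotype between the ages was therefore detected for any member.

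The alpha cluster was lower at 1 year in both genotypes. Its summed level in WT was 126, 117 and 129 CPM at 1 month and 87.0 and 80.9 at 1 year, a ratio of means lower by 32.2%. In het it was 95.7, 124 and 118 CPM at 1 month and 74.1 and 71.2 at 1 year, lower by 35.3%. All 4 of the 1 year libraries lay below all 6 of the 1 month libraries. The sum is a description without a test, and in tissue a smaller number of cells of one type and less RNA per cell cannot be told apart.

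In WT 13 of 14 alpha members had a negative age difference, and in het 12 of 14, where 49.5% and 49.4% of all genes did so. The median log2 fold change was -0.53 in WT and -0.58 in het, against 0.0050 and 0.0061 over all genes. Of the gamma members 14 of 22 were negative in WT and 19 of 22 in het, with medians of -0.14 and -0.51. For the beta members these counts were 13 and 9 of 21, with medians of -0.065 and 0.023. All 5 C-types, of the alpha and gamma clusters, were negative in both genotypes. Pcdha2, Pcdha3, Pcdha6, Pcdha7 and Pcdhac2 (5 of 14) had every 1 year library below every 1 month library, where 5.48% of all genes did so. The alpha members share constant exons, so their counts are not independent of one another.

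In WT 0 of 57 members passed the edgeR test for age (0.0936% of all genes), with 2 higher and 9 lower at an unadjusted p under 0.05, where 7.41% and 7.89% of all genes were. limma called 0 and DESeq2 called 3 members, Pcdha2, Pcdhb22 and Pcdhgb4, among 240 of all genes that DESeq2 called. Pcdha2 had the smallest p, at -0.98 ± 0.20 with an edgeR adjusted p of 0.104, and 242, 180 and 195 counts at 1 month against 101 and 86 at 1 year. Pcdhb20 (-0.52) and Pcdhb18 (-0.71) followed, with edgeR adjusted p of 0.189 and 0.198. Among those higher, Pcdhgb4 was at 2.35 ± 0.61 (edgeR adjusted p 0.193), with 433 and 378 counts at 1 year and 101, 87 and 77 at 1 month.

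In het 1 of 57 members passed, downward (3.45% of all genes passed, and 1.6% downward). Pcdha9 fell, by 1.23 ± 0.28 on the log2 scale with an edgeR quasi-likelihood adjusted p of 0.0405, from 67, 104 and 73 counts at 1 month to 23 and 34 at 1 year, with no overlap. Its adjusted p ran from 0.00635 to 0.248 over 14 alternatives, and it passed in 6 of them. Without the library het 1 month replicate 1, 11 members were called, among 2931 of all genes called. Without het 1 month replicate 2 or 3, 0 members and 26 and 19 of all genes were called. At an unadjusted p under 0.05, 3 members were higher and 12 lower in het, where 12.2% and 12.8% of all genes were. The lower ones were 8 of 14 alpha, 1 of 21 beta and 3 of 22 gamma members. In WT 4 of 14 alpha members were lower by that measure, where 7.89% of all genes were.

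Other alpha members near the threshold in het were Pcdha5, at -1.13 ± 0.29 with an edgeR adjusted p of 0.0526, and Pcdhac2, at -0.62 ± 0.17 with 0.0615. Pcdhac2 measured 33.2, 44.6 and 41.6 CPM at 1 month and 29.4 and 22.3 at 1 year in het, and 30.1 in each WT 1 year library against 37.4 to 50.1 at 1 month. DESeq2 called 6 members in het, Pcdha4, Pcdha5, Pcdha9, Pcdhac2, Pcdhb15 and Pcdhgc5, among 1372 of all genes called. Pcdhb15 was the member nearest to the threshold among those higher, at 1.05 ± 0.28 with an edgeR adjusted p of 0.0560, from 35, 38 and 44 counts to 46 and 87. Without het 1 year replicate 2 it was at 0.51.

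**Figure D4:**
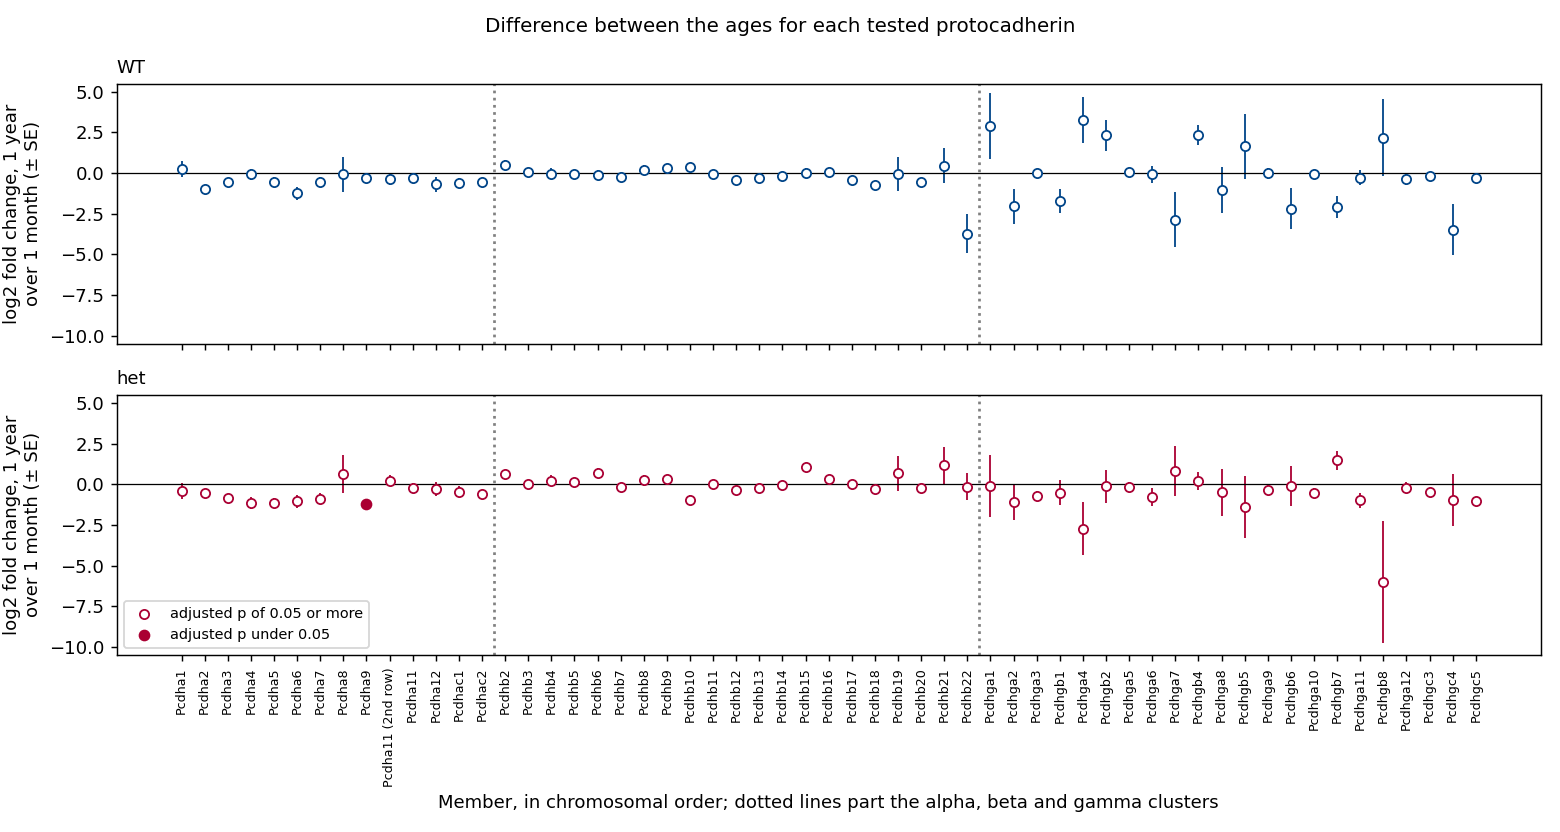
Log2 fold change of 1 year over 1 month (± SE) for each tested member in WT (top) and het (bottom), in chromosomal order. Alpha members lie mostly below 0 in both panels and beta members to both sides of 0. Gamma members lie mostly below 0 in het, and the errors are widest among them. The filled point is Pcdha9 in het, the 1 member past the threshold.

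Neuronal marker sums were also lower at 1 year, as were those of some other cell types. The summed level of 12 excitatory neuron markers was 4608 to 5215 CPM in WT at 1 month and 4416 to 4522 at 1 year, and 4552 to 5344 and 3873 to 3960 in het. That of 12 inhibitory neuron markers was 1171 to 1418 and 1081 to 1142 in WT, and 1088 to 1262 and 941 to 1012 in het. In het edgeR called 2 of the excitatory and 1 of the inhibitory markers lower, where 1.6% of all genes were, and in WT 0 of either, where 0.0936% of all genes were called; at an unadjusted p under 0.05, 4 of each list were lower in WT (7.89% of all genes). The marker calls come from the main fit and were not followed through the alternatives. No marker of either list was at 0 in all libraries, and within a genotype the ages did not overlap in either sum. The sums of oligodendrocyte precursor markers (229 to 274 and 193 to 207 CPM in WT, 224 to 281 and 166 to 167 in het) and of mural cell markers (92.7 to 144 and 75.9 to 78.4 in WT, 86.7 to 114 and 71.9 to 78.5 in het) were lower in the same way. Astrocyte and microglia sums were lower without overlap in het alone and meningeal sums in WT alone, while choroid plexus and blood sums were higher in het alone. Oligodendrocyte and endothelial sums overlapped between the ages in both genotypes. The median log2 fold change in WT was -0.17 for excitatory and -0.21 for inhibitory neuron markers. It was -0.60 for oligodendrocyte, -0.42 for endothelial, -0.62 for mural cell and -0.61 for meningeal markers. For astrocyte and microglia markers it was 0.063 and 0.21. In het the medians in that order were -0.21, -0.34, -0.20, -0.18, -0.40, -0.17, -0.17 and -0.087. Gpr17, an oligodendrocyte precursor marker, was called lower in both genotypes (edgeR adjusted p 0.0394 in WT and 0.00775 in het). Kidney markers, foreign to cortex, summed to 6.69 to 9.34 CPM in WT and 11.6 to 33.8 in het at 1 month, and to 2.34 to 4.14 over the 1 year libraries. In het 2 of the 6 tested kidney markers were called lower, Kap (-10.3) and Acsm2 (-8.34), with edgeR adjusted p of 0.00753 and 0.0281. The part of these differences in the alpha result was not tested.

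The beta sum differed little with age, and in opposite directions in the genotypes. In WT it was 177, 151 and 180 CPM at 1 month and 145 and 146 at 1 year, lower by 14.0% (log2 ratio -0.22, and -0.11 with summed FPKM). In het it was 152, 159 and 154 at 1 month and 159 and 169 at 1 year, and the lowest 1 year value lay just above the highest 1 month value. Pcdhb22 was near 0 in both WT 1 year libraries and in WT 1 month replicate 2, the 1 month library with the lowest beta sum. Without Pcdhb19, Pcdhb21 and Pcdhb22, chosen after their values were seen, WT at 1 year measured 125 and 126 CPM against 130 to 144 at 1 month, and het 124 and 132 against 113 to 141. The het values then overlapped between the ages, and the WT values did not.

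The gamma sum was 622, 486 and 663 CPM in WT at 1 month and 564 and 469 at 1 year, with overlap. In het it was 504, 721 and 613 at 1 month and 391 and 445 at 1 year, lower by 31.8% and without overlap. Of the C-types, Pcdhgc5 in het measured 50.5, 86.1 and 75.0 CPM at 1 month and 37.1 and 30.5 at 1 year, with a log2 fold change of -1.06 ± 0.27 and an edgeR adjusted p of 0.0607. Pcdhgc3 was at -0.46 ± 0.15 in het (adjusted p 0.0849 by edgeR) and -0.20 ± 0.14 in WT (0.509 by edgeR). Pcdhb2 and Pcdhb9 had every 1 year library above every 1 month library (5.02% of all genes did so), and Pcdhgc4 was the 1 gamma member with every 1 year library below.

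**Figure D5:**
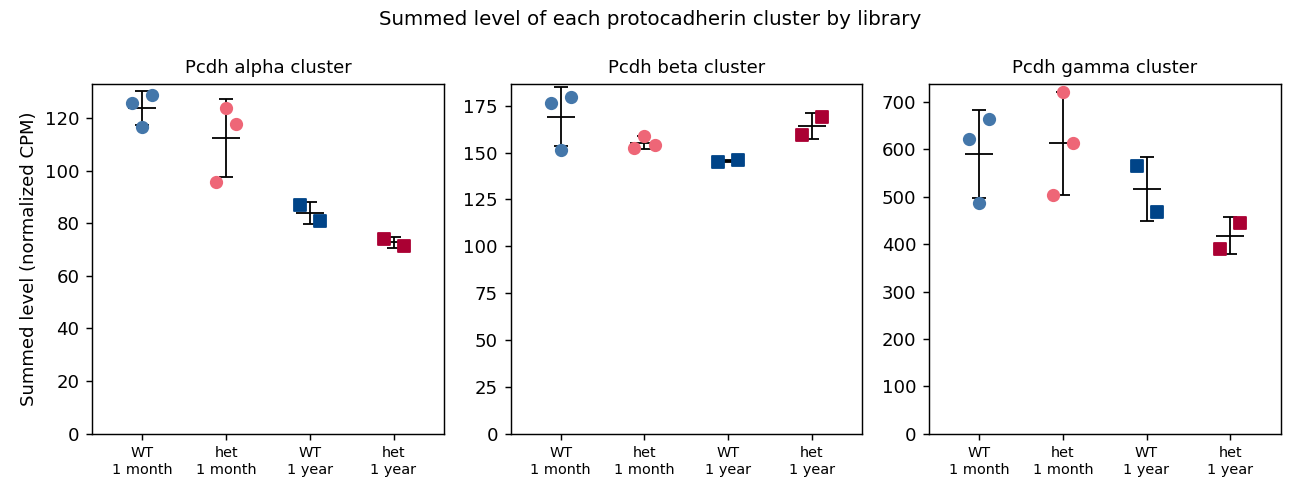
Summed level of the alpha, beta and gamma members (normalized CPM) per library by group, with the mean and SD in black. The alpha sums at 1 year (71.2 to 87.0) lie below all those at 1 month (95.7 to 129), while the gamma sums overlap between the ages in WT.

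Between genotypes at 1 year, het was lower in the alpha sum by 13.4% and in the gamma sum by 19.1%, and higher in the beta sum by 12.9%, each without overlap among the 2 and 2 libraries. At 1 month the genotypes overlapped in all 3 sums. With 2 libraries a group, these differences were given no test. Of all genes, 20.8% were lower and 21.6% higher in het at 1 year without overlap. Without Pcdhb19, Pcdhb21 and Pcdhb22 the beta sums overlapped, at 124 and 132 CPM in het and 126 and 125 in WT, and Pcdhb22 alone measured 15.9 CPM in het and 0.941 in WT. The 1 year het and WT libraries also differed without overlap in marker sums of several cell types. Excitatory and inhibitory neuron, oligodendrocyte precursor and microglia sums were lower in het, and oligodendrocyte, choroid plexus and blood sums were higher. Their part in the cluster sums was not tested.

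Proteins that work with the clustered protocadherins were followed as lists, in the main fit only. For age in het that fit called 552 of all genes. Under alternatives the number ran from 13, with replicate number as a block, to 2931, without het 1 month replicate 1. It was 26 and 19 without het 1 month replicate 2 or 3, and 32 with the het groups alone. The calls of list genes were not followed through the alternatives. Among 24 regulators of chromatin at the clusters, including CTCF and cohesin subunits, 2 rose with age in het, where 1.84% of all genes did. They were Stag1, which encodes a cohesin subunit (0.67 ± 0.13, edgeR adjusted p 0.0282), and Tet2, an enzyme of DNA demethylation (0.78 ± 0.17, edgeR adjusted p 0.0392). Among 13 genes of lysine 36 and Polycomb methylation, Ash1l included, 0 passed with age in het, with 3 higher and 1 lower at an unadjusted p under 0.05, where 12.2% and 12.8% of all genes were.

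Of 26 binding partners and processing factors, 3 fell with age in het, where 1.6% of all genes did. These were Abi1, of the actin-regulating WAVE complex to which protocadherins bind (-0.75 ± 0.14), Marcks, an actin-binding substrate of protein kinase C in the gamma pathway (-0.70 ± 0.15), and the tyrosine kinase Fyn (-0.41 ± 0.10), with edgeR adjusted p of 0.0281, 0.0365 and 0.049996. Of 11 tested non-clustered protocadherins 1 fell (1.6% of all genes did), Pcdh1 (-0.73 ± 0.14, edgeR adjusted p 0.0282). Of 20 other recognition proteins the atypical cadherin Celsr3 rose (0.71 ± 0.15) and Sdk1, an adhesion protein of synaptic layers, fell (-0.83 ± 0.18), with edgeR adjusted p of 0.0365 and 0.0375, against 3.45% of all genes called in either direction. The median age difference in WT and het was -0.33 and -0.29 for the non-clustered protocadherins, -0.28 and -0.34 for the other recognition proteins and -0.26 and -0.24 for the partners, while that of the chromatin regulators was 0.029 and 0.025. With age in WT 0 genes of these 5 lists passed edgeR's test; at an unadjusted p under 0.05, 4 non-clustered protocadherins, 8 recognition proteins and 9 partners were lower, where 7.89% of all genes were. In het against WT 0 passed at either age, with at most 3 genes of a list at an unadjusted p under 0.05 in one direction. Of all genes, 1.5% were in each direction at 1 month, and 2.95% higher and 2.73% lower at 1 year.

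Lying between the outer ends of the clusters were 24 other rows of the tables, of which 19 had a count. The highest were Taf7, a general transcription factor subunit (mean 8.36 CPM), Gm26672 (2.35 CPM) and Gm38182 (1.75 CPM).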

How the data were processed

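The authors deposited raw gene counts for each of the 10 libraries and a series table with the same counts and FPKM (identical counts in 10 of 10). Per the submitters' processing notes, CASAVA, FastQC, HISAT2, StringTie and edgeR were used with GRCm38; their versions and the counting settings were not given in the sources used. CPM was computed from the deposited counts with TMM scaling. Exon lengths came from GENCODE M21, whose start and end matched for 58 of 58 members. The length implied by the deposited FPKM was within 1% of the union of exons for 37 of 58.

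The tests used edgeR 4.0.16 under R 4.3.3 (minimum count 10, minimum total 15, robust quasi-likelihood, 4 group means, all 10 libraries, two-sided) with Benjamini-Hochberg adjustment over 16023 genes and a threshold of 0.05. Standard errors are approximate. Alternatives were other scalings and filters, a non-robust fit, DESeq2 1.42.0, limma 3.58.1 on log2(FPKM + 1) and log2(FPKM + 0.1), the groups alone, the replicate block and leaving out each library. The calling was also run on simulated counts with 1 common spread (0.158) for all genes and shifts in het at 1 month alone. That run does not cover the wider spread of many gamma members or the age comparisons. No 2 libraries held identical counts.

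The members and lists were chosen with earlier results of these data known. Genes were named by rule: the C-types, the 3 highest and the lowest by mean FPKM in each set, the 3 of smallest p in each direction of a comparison, called members and list genes, and the 3 highest other rows of the locus. Members with a very high or low library and those lying apart by age were named after their values were seen.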

Additional observations from a re-analysis of the deposited data

Results flagged for a closer look

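The beta sum was lower at 1 year in every WT library (log2 ratio of group means -0.22) and higher at 1 year in every het library (0.082), and the difference between the genotypes was not tested. In het the nearest libraries of the ages were at 159.4 and 159.0 CPM, and the ratio was within the SD between replicates (0.085). Without Pcdhb19, Pcdhb21 and Pcdhb22, chosen after their values were seen, the het sums overlapped between the ages. Pcdhgb7 also went in opposite directions without overlap: its age difference was -2.09 in WT and 1.48 in het, with an interaction of 3.57 and an adjusted p of 1.00 by edgeR's quasi-likelihood test.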

How the results depend on the processing

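Of the results that answer a comparison, 237 values under alternatives stayed near the main value and 31 moved. Near meant within the SD between replicates, or for counts of calls a similar count. A value close to 0 could change sign and still count as near. DESeq2 called 1 member at 1 month, 1 over both ages, 3 with age in WT and 6 with age in het. Of all genes it called 11, 22, 240 and 1372 there. A fit of the groups compared alone called 1 at 1 month, 2 at 1 year, 2 with age in WT and 0 with age in het. Of all genes that fit called 2, 15, 79 and 32. Without the filter on low counts 1 was called in WT and 4 in het with age, beside 64 and 937 of all genes. limma on log2(FPKM + 1) and log2(FPKM + 0.1) called 0 with age in het, beside 482 and 234 of all genes. Summed FPKM gave a log2 ratio of -0.11 for the beta sum with age in WT.

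The replicate numbers are shared by the groups. At 1 month same-numbered het and WT libraries had correlations of -0.072 to 0.037 in their deviations from the group means, and other pairs -0.042 to 0.077. At 1 year, with 2 libraries a group, the correlations are equal apart from sign by construction. No pairing by number was seen, but so few libraries cannot exclude one, and the main fit used none. With the replicate block 0 members were called with age in het, against 1, and Pcdha9 was at -1.29. Not every library correlated best with its own number.

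Leaving out each 1 month library in turn gave 0 to 1 members called over both ages, for the interaction and for age in WT. For age in het it gave 0 to 11. Of all genes, these fits called 9 to 97 for age in WT and 19 to 2931 for age in het. With each library of either age left out in turn, the median log2 fold change of the members ran from -0.070 to 0.16 for the interaction. For age in het it ran from -0.45 to -0.13. Pcdhgb4 at 1 year ran from -0.078 (without het replicate 2) to 2.16, and with age in WT Pcdhgb2 ran from -0.41 to 3.22 and Pcdhga4 from -0.0061 to 4.17, the lowest without WT 1 year replicate 1. The cause was not tested. Libraries of 2 and 3 a group limit every comparison, and single alpha and gamma members rest on reads of shared exons.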
